A study of Mus musculus with 37 samples.

Results

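Timp1-deficient and wild-type mice were compared in the colon during acute colitis, across all genes measured. The comparison took the arrays whose titles end in the acute dextran sodium sulphate (DSS) label, 6 from knockout and 5 from wild-type animals, which are 11 of the 37 arrays of the series, with 1 array per animal. Wild types were C57BL/6J. Knockouts were B6.129S4-Timp1tm1Pds/J (the strain label again names C57BL/6J), a germline allele, so that no cell type or stage is singled out. DSS, a polysaccharide that injures the colonic epithelium, was taken by mouth. The dose, the days of treatment, and the age and sex of the animals are not given in the sources used here. The acute controls, used as the background level of the genotype difference, held 3 mice of each genotype, and the chronic DSS groups 5 of each. RNA came from snap frozen whole colon. Values are log2 signals of an Affymetrix Mouse Gene 1.0 ST array, so a difference of 1 is a 2-fold difference. Differences are given as knockout minus wild type ± SE, and a gene passed at an adjusted p under 0.05 over 19938 genes.

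Timp1 encodes tissue inhibitor of metalloproteinases 1, a secreted protein that blocks most matrix metalloproteinases and also signals to cells. Metalloproteinases cut collagens, laminins and other matrix proteins, and release growth factors and cytokines held in the matrix or on cell membranes. In an injured colon, epithelial loss is followed by entry of neutrophils and monocytes, by activation of fibroblasts that lay down new matrix, and by regrowth of the crypts.

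Wild-type replicates 1 and 3 stood apart from the other arrays. Title numbers fell into series: all 5 wild types and knockout replicates 1 to 3 had plain numbers, and knockout replicates 4 to 6 and all 3 knockout acute controls carried a second prefix. The first principal component of the 11 arrays held 56.3% of the variance and was led by wild-type replicates 3 and 1, at 74.0 and 50.9, against -43.3 to 9.9 in the other 9 arrays. The second held 16.7% and separated the plain-number knockouts, at 17.7 to 32.5, from the second-series knockouts, at -21.4 to -13.1. On it the wild types, all with plain numbers, lay at -22.3 to 13.0. No wild type under acute DSS came from the second series, so series and genotype cannot be told apart on this component. Epithelial marker signal went with the first component. The mean over 14 epithelial identity genes was 11.56 and 10.72 in wild-type replicates 1 and 3, 12.25 to 12.27 in the other 3 wild types and 12.03 to 12.47 in knockouts. Lists of skeletal muscle (8 genes) and pancreatic acinar cells (7 genes), tissues a colon dissection could carry along, had median differences of 0.01 and 0.04. The signal of Y-linked genes stood above Xist in knockout replicate 4 alone of these 11 arrays. Main results are therefore also given within the plain-number animals (3 knockouts, 5 wild types) and without wild-type replicates 1 and 3 (6 knockouts, 3 wild types).

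**Figure D1:**
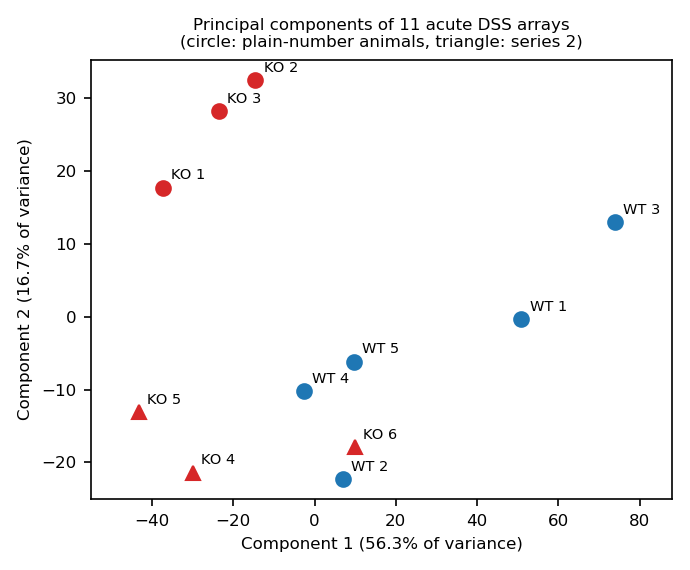
Scores of the 11 acute DSS arrays on the first 2 principal components of all genes, one point per array (WT wild type, KO knockout, numbers are replicates). Wild-type replicates 1 and 3 lie apart to the right, and the plain-number knockouts lie above those of the second series.

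The targeted gene was the most reduced one. Timp1 signal was 11.09, 10.94, 12.19, 9.47 and 10.05 in the 5 wild types, and in the knockouts it ran from 7.10 through a median of 7.48 to 8.68. The groups did not overlap, and the highest knockout value, replicate 6, stood 0.79 below the lowest wild type. The difference was -3.14 ± 0.44 (8.80-fold lower, adjusted p = 0.00838). It was -3.39 within the plain-number animals (adjusted p = 0.00943) and -2.54 without wild-type replicates 1 and 3 (adjusted p = 0.0156). Against the wild types, the 3 knockouts of the second series alone gave -2.88 (adjusted p = 0.0633). The sources used here do not say which part of the transcript the allele removes, so the signal that remained in knockouts was not resolved.

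Of the other metalloproteinase inhibitors, Timp2 was lower too. Timp2, which also takes part in activating Mmp2, was 11.92, 11.46, 12.03, 11.31 and 11.71 in wild types and 9.78, 10.35 and 11.10 at the lowest, median and highest of the knockouts. The groups did not overlap (-1.36 ± 0.22, adjusted p = 0.0113). Reck, a membrane-anchored inhibitor, was lower by -0.87 ± 0.19 (adjusted p = 0.0235). Timp3, which binds to matrix, differed by -0.99 ± 0.36 (adjusted p = 0.0885) and Timp4 by -0.06 ± 0.22 (adjusted p = 0.879), so neither passed.

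Genes next to Timp1 on the X chromosome were examined one by one, since a targeted allele brings linked sequence with it. Syn1, a synaptic vesicle gene in whose intron Timp1 lies, was 8.21, 8.09, 8.24, 7.82 and 7.81 in wild types and 7.10 to 7.27 in knockouts. The groups did not overlap (-0.88 ± 0.09, adjusted p = 0.00400). Syn1 is 1 of the 5 named genes taken on each side. Of the other 9, Elk1 passed at -0.41 ± 0.11 (adjusted p = 0.0421) and its call ended without wild-type replicates 1 and 3 (adjusted p = 0.229). Cfp, the complement regulator properdin, differed by -0.93 ± 0.35 and did not pass (adjusted p = 0.0986). The remaining 7, Rbm10, Cdk16, Usp11, Araf, Uxt, Zfp182 and Spaca5, lay between -0.34 and 0.25 and none passed.

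**Figure D2:**
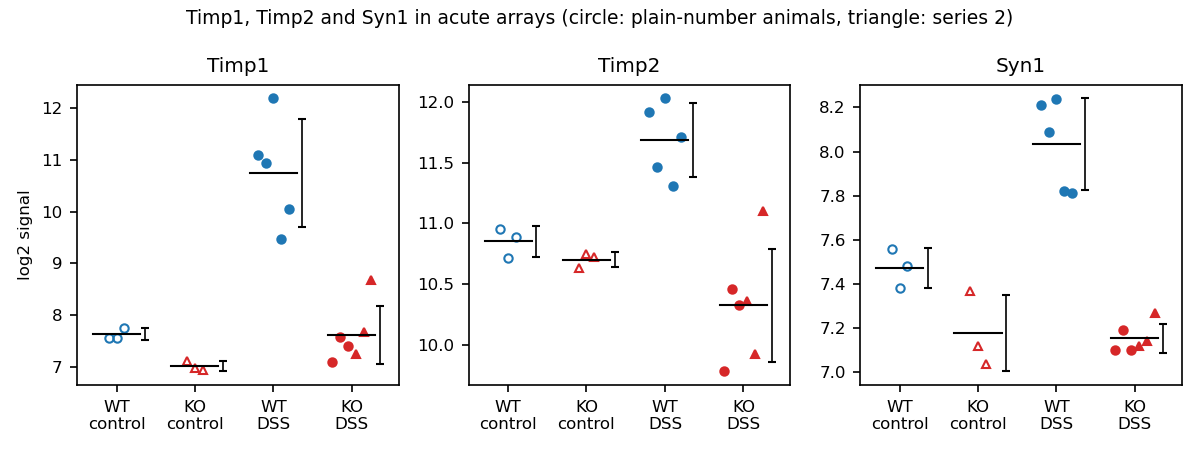
Log2 signal of Timp1, Timp2 and Syn1 in each acute array (points; open for controls, filled for DSS), with group means (lines) and SD (bars). All 3 genes are lower in every knockout than in every wild type under DSS, and Timp1 in wild-type DSS reaches 12.19.

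Across all genes, 2239 passed (11.2% of 19938), 878 of them higher in knockout (4.4%) and 1361 lower (6.83%). At least 2-fold differences were found for 87 of the higher and 270 of the lower genes. The median difference of all genes was 0.02. Groups did not overlap for 1197 genes (6.0%; knockout above in 2.96% and below in 3.04% of all genes), 989 of them among those that passed. Within the plain-number animals 3107 genes passed (15.6%; 6.62% higher, 8.97% lower), including 1534 of the 2239 (68.5% of them). Without wild-type replicates 1 and 3, 147 passed (0.737%; 0.461% higher, 0.276% lower), of which 127 were among the 2239, 81 higher and 46 lower. Leaving out single arrays gave between 300 genes, without wild-type replicate 1, and 3790, without knockout replicate 6, and 293 genes passed in each of the 11 such fits (122 higher, 171 lower). Without knockout replicates 1 to 5 in turn 614, 1282, 723, 1041 and 743 passed, and without wild-type replicates 3 and 5 in turn 820 and 1316. A model of all 37 arrays called 6170 genes (30.9%), 3142 of them higher (15.8%) and 3028 lower (15.2%), with a spread shared with the control arrays.

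The lower genes held much of the injury stroma. Fewer cells of a type and less RNA per cell cannot be told apart in whole tissue. Of 20 fibrillar and sheet collagens 11 were lower, 0 were higher and 9 did not pass, with a median of -0.78. Col12a1, a collagen that coats fibrils, was 12.28, 10.98, 11.75, 10.97 and 11.63 in wild types and 8.90, 9.45 and 10.50 at the lowest, median and highest of the knockouts. Every knockout lay below every wild type (-1.94 ± 0.32, 3.85-fold lower, adjusted p = 0.0120). The bulk collagens Col1a1, Col1a2 and Col3a1 were lower by -1.19 ± 0.29, -1.10 ± 0.29 and -1.08 ± 0.28 (adjusted p = 0.0306, 0.0389 and 0.0367).

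Basement membrane genes, whose products lie under epithelium and around vessels, were lower as well. Of 18 measured, 11 were lower and 0 higher, with a median of -1.06. Lama2, a laminin chain of muscle and stroma, stood at 10.29, 9.25, 10.51, 9.33 and 9.78 in wild types and at 8.25 to 8.85, median 8.71, in knockouts (-1.24 ± 0.23, adjusted p = 0.0159). Nid1, which bridges laminin and collagen IV, was lower by -1.33 ± 0.26 (adjusted p = 0.0171, and 0.0547 without wild-type replicate 1). Of 18 matrix glycoproteins and proteoglycans 14 were lower and 0 higher, with a median of -1.09. The fibroblast products periostin (Postn, -1.14 ± 0.20, adjusted p = 0.0143) and thrombospondin 2 (Thbs2, -1.04 ± 0.16, adjusted p = 0.00992) were among them, as was the provisional matrix proteoglycan versican (Vcan, -1.97 ± 0.52, adjusted p = 0.0370). Of 14 collagen modifying enzymes 7 were lower, including the cross-linking oxidases Lox (-2.21 ± 0.58, adjusted p = 0.0365) and Loxl1 (-1.25 ± 0.24, adjusted p = 0.0171) and the procollagen peptidase Bmp1 (-1.16 ± 0.20, adjusted p = 0.0128). That count was 4 within the plain-number animals, 0 without wild-type replicates 1 and 3, 1 without wild-type replicate 1, 2 without any one of knockout replicates 1, 3, 4 and 5 or wild-type replicates 3 and 5, and 10 without knockout replicate 6.

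These matrix differences were larger with wild-type replicates 1 and 3 than without them, and kept their sign. Mean collagen signal was 10.12, 9.38, 9.99, 9.45 and 9.74 in the 5 wild types and 8.71, 9.01 and 9.32 at the lowest, median and highest of the knockouts, so the groups did not overlap. The medians of the collagen, basement membrane and glycoprotein lists were -0.46, -0.68 and -0.88 without those 2 arrays, and 0, 0 and 1 of their members passed. Within the plain-number animals the same medians were -0.88, -1.20 and -1.05, with 8, 10 and 13 members lower. With only the second-series knockouts they were -0.68, -0.85 and -1.06, and 0 members of each list passed. In acute controls they were 0.01, 0.00 and -0.28, with 1, 0 and 5 members lower, against 2.85% of all genes. Mean glycoprotein signal there was 9.85 to 10.02 in knockouts and 10.18 to 10.36 in wild types. Under DSS, without wild-type replicate 1 alone, 1, 1 and 3 members passed, and without knockout replicate 6 alone, the knockout array with the most matrix signal, 14, 12 and 17. Without knockout replicates 1, 3, 4 or 5 or wild-type replicates 3 or 5 in turn, collagen counts were 3, 5, 7, 5, 5 and 7, basement membrane counts 3, 3, 5, 3, 4 and 8, and glycoprotein counts 4, 7, 5, 4, 5 and 8.

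Proteases that act on this matrix were lower as well. Of 17 metalloproteinases 6 were lower in knockout and 0 higher, with a median of -0.88: the gelatinases Mmp2 (-1.81 ± 0.33, adjusted p = 0.0148) and Mmp9 (-1.77 ± 0.40, adjusted p = 0.0252), the membrane-bound Mmp14 (-0.99 ± 0.20, adjusted p = 0.0188), and Mmp19, Mmp11 and Mmp23 (-1.67, -0.57 and -0.53). These 6 were named after their values were seen. The members with the widest differences, Mmp8 (-2.35 ± 0.75), Mmp10 (-2.18 ± 0.73) and Mmp13 (-2.08 ± 0.86), did not pass (adjusted p = 0.0628, 0.0734 and 0.128). Mmp10 and Mmp13 ran from 7.17 to 11.48 and from 7.12 to 11.96 within the knockouts. Pappa, a metalloproteinase that cleaves insulin-like growth factor binding proteins, was lower by -2.10 ± 0.47 (adjusted p = 0.0251, and 0.0711 without wild-type replicate 1). Both plasminogen activators were lower, urokinase (Plau) by -1.76 ± 0.38 and tissue-type activator (Plat) by -1.41 ± 0.29 (adjusted p = 0.0219 and 0.0201, and 0.0648 and 0.0605 without wild-type replicate 1). Without wild-type replicates 1 and 3 the metalloproteinase median was -0.54 and 1 member passed. The count was 11 without knockout replicate 6, 2 without wild-type replicate 1, and 3 without wild-type replicate 3 or knockout replicates 1, 3, 4 or 5.

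Growth factors and receptors of mesenchymal cells followed. Inhba, which forms activin A, was 10.60, 10.75, 10.94, 9.44 and 9.69 in wild types and 7.16, 8.10 and 9.13 at the lowest, median and highest of the knockouts. The groups did not overlap (-2.13 ± 0.37, 4.39-fold lower, adjusted p = 0.0140, and 0.0937 without wild-type replicates 1 and 3). Pdgfrb, the receptor of pericytes and fibroblasts, was lower by -1.47 ± 0.27 (adjusted p = 0.0161) and Pdgfra by -1.39 ± 0.25 (adjusted p = 0.0143). Of 21 fibroblast and TGF-beta response genes 11 were lower and 0 higher, with a median of -0.88, and without wild-type replicates 1 and 3 the median was -0.63 and 0 passed. The count was 4 without wild-type replicate 1, 6 or 7 without knockout replicates 1, 3 or 5 or wild-type replicate 3, and 17 without knockout replicate 6. With only the second-series knockouts the median was -0.86 and 0 passed. The list also held Tgfb2 and Tgfb3 (-0.83 and -0.76) and the receptors Tgfbr1 and Tgfbr2 (-0.81 and -0.75), all lower. Hgf and Fgf7, mesenchymal factors that act on epithelium, were lower by -2.09 ± 0.53 and -2.08 ± 0.53 (adjusted p = 0.0326 and 0.0344). Their calls ended without any one of several arrays, with adjusted p = 0.0900 and 0.0953 without wild-type replicate 1. Of the EGF family, betacellulin (Btc) was 8.93, 8.52, 8.53, 8.61 and 8.99 in wild types and 7.67 to 8.03, median 7.78, in knockouts, again without overlap (-0.91 ± 0.11, adjusted p = 0.00464). Neuregulin 1 (Nrg1) and the receptor Egfr were also lower (-1.88 ± 0.46 and -0.43 ± 0.10). The family as a whole had a median of -0.13, with 5 members positive and 5 negative, and 3 of 10 members passed. The count was 1 without any one of knockout replicates 1, 4 and 5 or wild-type replicates 1 and 3.

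Other structural cells gave smaller counts, to be read against 6.83% of all genes lower. Of 16 smooth muscle genes 2 were lower, Cald1 (-0.89 ± 0.18, adjusted p = 0.0200) and Cnn1 (-0.52 ± 0.13, adjusted p = 0.0340), with a median of -0.26. Without wild-type replicates 1 and 3 the smooth muscle median was -0.16 and 0 passed. Of 15 endothelial genes 3 were lower, Emcn, Plvap and Vwf (-1.19, -1.03 and -0.79), while all 15 had a negative difference and the median was -0.83. The endothelial count was 12 without knockout replicate 6, whose mean endothelial signal of 9.81 lay within the wild-type range of 9.29 to 10.34, 7 without wild-type replicate 4, 2 without wild-type replicate 2, and 0 without any one of wild-type replicates 1, 3 and 5 or knockout replicates 1 to 5. Within the plain-number animals 10 were lower, and without wild-type replicates 1 and 3 together 0. Of 13 genes of enteric neurons and glia 3 were lower, Snap25, Ret and Sox10 (-0.90, -0.85 and -0.38). That count was 8 within the plain-number animals, 9 without knockout replicate 6, 1 without knockout replicate 2 or wild-type replicate 3, and 0 without any one of knockout replicates 1, 3, 4 and 5 or wild-type replicate 1, and without wild-type replicates 1 and 3 together. Among 7 adipocyte genes, markers of fat attached to the gut wall, only Fabp4 was lower (-1.77 ± 0.36, adjusted p = 0.0204). Adipocyte signal was 9.08, 9.29, 7.54, 8.80 and 9.42 in wild types and 7.64 to 8.60 in knockouts, and its part in other differences was not tested.

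Inflammatory cell transcripts had negative medians, and few members passed, against 6.83% of all genes lower. The unadjusted p in limma was under 0.05 for 12 of 18 neutrophil and 8 of 22 monocyte and macrophage genes. Among all 19938 genes this was so for 6185. Mean signal of 18 neutrophil genes was 9.34, 8.92, 9.94, 8.20 and 8.25 in wild types and 6.79, 7.68 and 8.64 at the lowest, median and highest of the knockouts. The groups overlapped, since knockout replicates 2 and 6, at 8.64 and 8.38, stood above wild-type replicates 4 and 5. The median difference was -1.34, and 2 members passed, Retnlg (-1.99 ± 0.57, adjusted p = 0.0462) and Mmp9. Without wild-type replicates 1 and 3 the neutrophil median was -0.75, and within the plain-number animals it was -0.95, with 0 members passing in either. Lcn2 (-2.28 ± 0.85, adjusted p = 0.0975) and Saa3 (-2.42 ± 0.82, adjusted p = 0.0752), products of neutrophils and of inflamed epithelium, did not pass. Haptoglobin (Hp), which binds free haemoglobin, was 11.82, 11.58, 11.82, 10.39 and 11.09 in wild types and 7.10, 8.55 and 10.77 at the lowest, median and highest of the knockouts (-2.63 ± 0.56, adjusted p = 0.0218, and 0.0642 without wild-type replicate 1). It was the only 1 of 15 acute-phase genes that passed.

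Most macrophage and cytokine genes had negative differences, and few passed. Negative were 21 of 22 monocyte and macrophage, 8 of 11 interleukin 1 family and 10 of 11 interleukin 6 family genes. Of 17 CC chemokines 8 were negative and 9 positive. Gpnmb, a glycoprotein of lipid-laden macrophages, was 9.15, 9.38, 10.29, 8.95 and 9.75 in wild types and 6.70 to 7.98, median 7.51, in knockouts. Every knockout was at least 0.97 below every wild type (-2.01 ± 0.27, 4.04-fold lower, adjusted p = 0.00714, and 0.0140 without wild-type replicates 1 and 3). The mannose receptor Mrc1 (-1.30 ± 0.24, adjusted p = 0.0162) was the only 1 of 22 listed monocyte and macrophage genes that passed, with a list median of -0.74. Il1b, Il1a and Il6 gave -1.18 ± 0.66, -1.58 ± 0.81 and -1.10 ± 0.76 and did not pass (adjusted p = 0.250, 0.206 and 0.348). In Il1b the single highest array was wild-type replicate 3, at 12.98, while wild-type replicates 4 and 5, at 9.66 and 9.61, lay inside the knockout range of 7.69 to 10.65. The interleukin 1 receptor antagonist Il1rn was lower (-1.20 ± 0.32, adjusted p = 0.0369) and Il18bp, an inhibitor of interleukin 18, was higher (0.58 ± 0.16, adjusted p = 0.0406). Igha, the constant region of immunoglobulin A, was lower (-2.19 ± 0.60, adjusted p = 0.0423, and 0.112 without wild-type replicate 1). Of 14 B cell genes 0 passed in limma, 1 had an unadjusted p under 0.05, and the median was -0.49.

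Interferon-induced genes stood higher in the knockouts. Interferons act through receptors and STAT and IRF transcription factors, and induce antiviral proteins (type I) and, for interferon gamma, immunity-related GTPases and antigen presentation. Of 22 type I interferon-stimulated genes 13 were higher and 0 lower, with a median of 1.04, against 4.4% of all genes higher. Ifit2, an antiviral RNA-binding protein, was 8.13, 7.05, 8.85, 7.60 and 7.46 in wild types and 9.09, 9.65 and 10.54 at the lowest, median and highest of the knockouts. The groups did not overlap (1.85 ± 0.33, adjusted p = 0.0140). Zbp1, a sensor of left-handed nucleic acid (1.70 ± 0.31, adjusted p = 0.0155), and Oasl2, of the oligoadenylate synthetase family (1.64 ± 0.30, adjusted p = 0.0154), were higher, and so were the regulator Irf7 (1.40 ± 0.29, adjusted p = 0.0218) and the helicase Ifih1 (0.80 ± 0.13, adjusted p = 0.0125). Outside the list, the helicase Ddx60 was 7.45, 6.80, 7.94, 7.24 and 7.39 in wild types and 8.48, 9.74 and 10.33 at the lowest, median and highest of the knockouts (2.26 ± 0.31, 4.77-fold higher, adjusted p = 0.00754).

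Wild-type replicate 3 carried more interferon signal than the other wild types. Its list mean was 9.54, against 8.69, 7.96, 8.11 and 8.16 in wild-type replicates 1, 2, 4 and 5 and 9.18, 9.62 and 9.83 at the lowest, median and highest of the knockouts. Without wild-type replicates 1 and 3 the median difference was 1.48 and 18 of the 22 passed, the opposite of what leaving out these arrays did to the matrix counts. Without wild-type replicate 3 alone 18 passed, without wild-type replicate 1 alone 7, and without knockout replicates 1 or 3 alone 8 each. Within the plain-number animals the median was 1.07 and 9 members were higher. With only the second-series knockouts the median was 1.05 and 2 were higher, in a fit that called 150 of all genes.

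Genes answering to interferon gamma were higher in a subset. Ido1, which degrades tryptophan, was 6.93, 7.48, 7.55, 6.72 and 6.90 in wild types and 9.11, 11.17 and 12.58 at the lowest, median and highest of the knockouts, the widest separation of any gene named. It was 3.91 ± 0.58 higher (15.1-fold, adjusted p = 0.00913). The plain-number knockouts, with a mean of 12.21, stood above those of the second series, with a mean of 9.85, and both lay above all wild types. Of 9 interferon gamma-inducible GTPases 3 were higher, Iigp1 (2.08 ± 0.59, adjusted p = 0.0469), Irgm1 (1.72 ± 0.30, adjusted p = 0.0134) and Gbp8 (1.48 ± 0.22, adjusted p = 0.00873), with a median of 1.17. Within the plain-number animals 6 were higher (median 1.75), without wild-type replicates 1 and 3 there were 4 (median 1.70), and without wild-type replicate 3 alone 5. With series as a covariate, which estimates the plain-number difference again, 7 were higher. For the second-series knockouts the median was 0.59 and 0 passed in limma. The chemokine Cxcl9 differed by 2.52 ± 0.75 (adjusted p = 0.0525) and did not pass, with wild-type replicate 3, at 11.43, inside the knockout range of 9.90 to 12.61. It passed without wild-type replicates 1 and 3 (3.57, adjusted p = 0.0247). The transcription factors Irf1 (1.16 ± 0.17, adjusted p = 0.00853) and Irf8 (0.75 ± 0.15, adjusted p = 0.0175) were higher. Of 15 interferon gamma response genes 3 passed, which are Ido1 and these 2 factors, against 7 within the plain-number animals and 4 without wild-type replicates 1 and 3. The count was 2 without wild-type replicate 1.

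The stretch before the start of such genes can hold the interferon-stimulated response element, here searched as 2 copies of GAAA with any 2 bases between them, on either strand in the 250 bases before the start, with RefSeq promoters of the build GRCm38.p6. The motif was in 936 of all 27025 genes with a promoter in the table (3.46%). It was in 6 of the 14 type I interferon-stimulated genes that matched the table, in 4 of 4 matched GTPases, in 2 of 10 interferon gamma response genes and in 1 of 13 class I presentation genes. Of the genes with the 20 largest positive differences 16 matched and 3 held it, and of those with the 20 largest negative differences 10 matched and 0 held it. Both rankings hold only genes that passed. Saa3 and Mmp13, which had wide negative differences and did not pass, hold the motif. A match describes these letters only. The 4 genes shown first are named higher genes that hold the motif, and Xpnpep2, described below, is a strongly higher gene without it. Capitals mark the motif, which overlaps itself in Irgm1. The windows are chr8:61927837-61928086 (plus strand) for Ddx60, chr11:48871421-48871670 (minus) for Irgm1, chr15:77476797-77477046 (plus) for Apol10a, chr13:113100982-113101231 (minus) for Gzma and chrX:48108475-48108724 (plus) for Xpnpep2, each printed 5′ to 3′ on the gene's strand.
Ddx60: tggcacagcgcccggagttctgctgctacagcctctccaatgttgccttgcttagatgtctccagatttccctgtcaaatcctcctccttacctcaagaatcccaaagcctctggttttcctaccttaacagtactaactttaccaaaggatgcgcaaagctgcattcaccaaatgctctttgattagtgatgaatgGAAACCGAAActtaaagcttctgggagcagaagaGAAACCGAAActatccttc
Irgm1: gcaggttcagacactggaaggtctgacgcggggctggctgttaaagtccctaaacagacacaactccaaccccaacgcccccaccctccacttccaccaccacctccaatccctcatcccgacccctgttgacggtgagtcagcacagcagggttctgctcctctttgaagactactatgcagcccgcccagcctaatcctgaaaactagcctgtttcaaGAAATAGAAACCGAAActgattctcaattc
Apol10a: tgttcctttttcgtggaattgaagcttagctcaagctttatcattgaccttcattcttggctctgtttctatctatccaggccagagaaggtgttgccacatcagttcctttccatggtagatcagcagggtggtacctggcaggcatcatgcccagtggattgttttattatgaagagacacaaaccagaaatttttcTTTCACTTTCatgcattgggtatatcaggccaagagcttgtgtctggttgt
Gzma: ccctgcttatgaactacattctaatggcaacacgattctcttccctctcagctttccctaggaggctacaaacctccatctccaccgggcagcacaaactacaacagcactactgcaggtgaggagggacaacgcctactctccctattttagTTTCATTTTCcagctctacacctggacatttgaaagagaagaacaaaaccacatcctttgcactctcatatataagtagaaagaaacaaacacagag
Xpnpep2: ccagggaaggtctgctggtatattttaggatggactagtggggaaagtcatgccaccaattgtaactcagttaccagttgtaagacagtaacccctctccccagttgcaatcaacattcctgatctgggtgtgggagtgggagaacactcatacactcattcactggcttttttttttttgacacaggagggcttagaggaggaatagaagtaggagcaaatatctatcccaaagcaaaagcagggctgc
In Ddx60 the motif begins 53 and 19 bases before the start, in Irgm1 30, in Apol10a 51 and in Gzma 97 bases before it. The last 2 carry it on the opposite strand.

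Genes of MHC class I presentation were higher too. Of 15 measured genes 11 were higher and 0 lower, with a median of 0.62. Its mean signal was 9.58, 9.42, 10.04, 9.47 and 9.48 in wild types and 10.28, 10.30 and 10.60 at the lowest, median and highest of the knockouts, so all 6 knockouts stood above all 5 wild types. The immunoproteasome subunit Psmb8 was higher by 1.46 ± 0.24 (adjusted p = 0.0124), Psmb9 by 1.33 ± 0.19 (adjusted p = 0.00872) and Psmb10 by 1.00 ± 0.19 (adjusted p = 0.0162). The peptide transporter Tap1 (1.51 ± 0.31, adjusted p = 0.0203, and 0.0532 without wild-type replicate 1), the trimming peptidase Erap1 (0.62 ± 0.09, adjusted p = 0.00950) and the class I gene H2-Q2 (1.86 ± 0.28, adjusted p = 0.00945) were higher too. Class I genes are near-identical copies and vary between strains, so probes may not separate them. The count stayed at 11 without wild-type replicates 1 and 3 (median 0.67), was 8 within the plain-number animals (median 0.72) and 6 without wild-type replicate 1. With only the second-series knockouts it was 1 (median 0.50). The class II list (9 genes) had a median of 0.56, and 0 of its members passed in limma, 3 of them with an unadjusted p under 0.05.

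Some transcripts of cytotoxic cells were among the higher genes. Granzyme A (Gzma) was 6.42, 6.32, 6.95, 6.44 and 6.01 in wild types and 7.39, 7.79 and 8.54 at the lowest, median and highest of the knockouts, without overlap (1.49 ± 0.23, adjusted p = 0.00992). Nkg7, a cytotoxic granule protein (1.37 ± 0.29, adjusted p = 0.0218), Cd8a (0.70 ± 0.11, adjusted p = 0.0101), and Itgae and Klrd1 (0.51 each) were higher, while the regulatory T cell factor Foxp3 was lower (-0.62 ± 0.16, adjusted p = 0.0335). These were 6 of 20 T and NK cell genes, 5 higher and 1 lower, against 4.4% and 6.83% of all genes. In the list 14 genes had a positive and 6 a negative difference, and the median was 0.30. The number higher was 2 without wild-type replicate 1 and 3 without any one of knockout replicates 3 and 4 or wild-type replicate 2. Without wild-type replicates 1 and 3 only Gzma of them passed. Granzyme B (Gzmb) overlapped between the groups and did not pass (0.95 ± 0.53, adjusted p = 0.246). Tnfsf10, the death ligand TRAIL and an interferon-induced gene, was 8.76, 7.93, 8.41, 8.06 and 7.94 in wild types and 9.97 to 10.94, median 10.12, in knockouts (2.10 ± 0.22, 4.30-fold higher, adjusted p = 0.00400). In acute controls 7 of the 20 T and NK cell genes were higher and 0 lower, with a median of 0.31, against 1.98% of all genes higher. Of the 20, 0 passed the test of the difference between DSS and controls in limma (median -0.06).

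**Figure D3:**
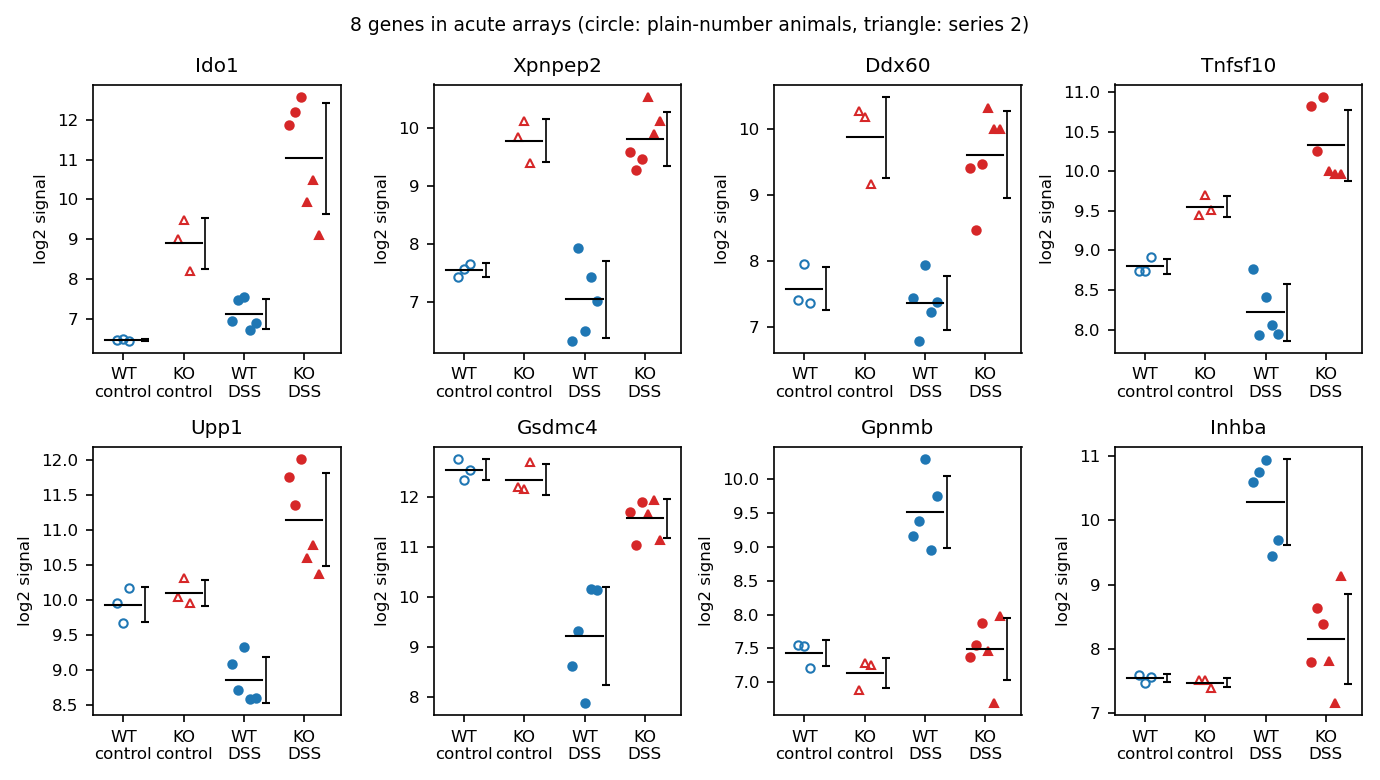
Log2 signal of 8 genes in each acute array (points; open for controls, filled for DSS), with group means (lines) and SD (bars). Under DSS all 6 knockouts lie above all 5 wild types for the first 6 genes and below them for Gpnmb and Inhba, and Ido1, Xpnpep2, Ddx60 and Tnfsf10 are higher in knockout controls too.

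Other genes were higher with a wide gap between the groups. Xpnpep2, a membrane-bound aminopeptidase encoded on the X chromosome, was 6.34, 7.94, 6.51, 7.44 and 7.03 in wild types and 9.28, 9.74 and 10.54 at the lowest, median and highest of the knockouts (2.77 ± 0.31, 6.81-fold higher, adjusted p = 0.00409). Upp1, which splits uridine, was 9.09, 8.72, 9.33, 8.59 and 8.60 in wild types and 10.37 to 12.01, median 11.07, in knockouts (2.28 ± 0.29, adjusted p = 0.00658). Gsdmc4, of the pore-forming gasdermin family, was 8.61, 9.32, 7.88, 10.15 and 10.13 in wild types and 11.04, 11.68 and 11.94 at the lowest, median and highest of the knockouts. No arrays overlapped (2.35 ± 0.39, adjusted p = 0.0121, and 1.70 with 0.0158 without wild-type replicates 1 and 3). Of 8 gasdermins 4 were higher, the others being Gsdmc2 (1.70 ± 0.41), Gsdmd (0.61 ± 0.11) and Gsdmc (0.49 ± 0.11). The count was 2 within the plain-number animals and without any one of knockout replicates 1 and 3 or wild-type replicate 1, and 1 without wild-type replicates 1 and 3 together. The Gsdmc copies are close paralogs, and shared probe signal was not resolved. Apol7a of the apolipoprotein L family (1.88 ± 0.22, adjusted p = 0.00464) and Sectm1a, a secreted and transmembrane protein (1.62 ± 0.18, adjusted p = 0.00445), were higher without overlap. Apol10a (2.52 ± 0.61, adjusted p = 0.0294) and Selenbp1, a methanethiol oxidase (2.31 ± 0.54, adjusted p = 0.0275), passed with all arrays, and their calls ended without wild-type replicate 1 (adjusted p = 0.0812 and 0.0780). The thyroid hormone deiodinases went opposite ways, Dio1 higher by 2.07 ± 0.44 and Dio2 lower by -1.93 ± 0.41 (adjusted p = 0.0218 each, and 0.0642 each without wild-type replicate 1).

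Genes of mature epithelium followed the 2 low wild-type arrays. Mean colonocyte transport signal was 9.74, 11.00, 8.66, 10.88 and 10.94 in wild types and 10.80, 11.26 and 11.41 at the lowest, median and highest of the knockouts. The groups overlapped, as only wild-type replicates 1 and 3 lay clearly below the knockouts. Of the 24 genes 1 was higher, the phosphate transporter Slc20a1 (0.79 ± 0.19, adjusted p = 0.0290), although all 24 had a positive difference and the median was 0.98. Without wild-type replicates 1 and 3 that median was 0.14. The chloride exchanger Slc26a3 was 10.17, 12.24, 7.79, 12.13 and 12.22 in wild types and 11.17 to 12.82 in knockouts, and its difference went from 1.23 ± 0.74 (adjusted p = 0.280) to -0.06 without those 2 arrays (adjusted p = 0.938). Medians of goblet cells (15 genes), tight junctions (15) and epithelial identity (14) were 0.78, 0.78 and 0.54, and 0.15, 0.25 and 0.06 without the 2 arrays. Of the goblet genes only Reg4, a secreted lectin, was higher (2.36 ± 0.59, adjusted p = 0.0319). Of the junction genes only claudin 1 (Cldn1), whose signal was 7.39 to 10.11 in wild types and 6.56 to 7.51 in knockouts, was lower (-1.74 ± 0.44, adjusted p = 0.0323), and of the identity genes 0 passed in limma, 5 of them with an unadjusted p under 0.05.

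Crypt base genes had nearly the same median with and without wild-type replicates 1 and 3, but without them 0 of 14 passed in limma. Lgr5, the stem cell receptor, was 7.13, 6.84, 6.68, 7.92 and 6.98 in wild types and 7.70, 8.58 and 9.05 at the lowest, median and highest of the knockouts, overlapping in 1 wild type. It was higher by 1.35 ± 0.27 (adjusted p = 0.0199), and by 1.22 without wild-type replicates 1 and 3, where it did not pass (adjusted p = 0.121). Rnf43, Ascl2, Ephb3 and Axin2, Wnt target genes, were higher too (0.93, 0.65, 0.55 and 0.45), and Nkd1 and Olfm4 were lower (-0.53 and -0.43). These made 5 higher and 2 lower of 14, with medians of 0.31 with all arrays and 0.33 without the 2, and the number higher was 0 without wild-type replicate 1, 1 to 3 without knockout replicates 1 to 5 or wild-type replicates 2, 3 or 5 in turn, and 7 without knockout replicate 6 or wild-type replicate 4. Of 22 oxidative phosphorylation genes 4 were higher (Ndufa1, Cox5a, Ndufb8 and Ndufs1, 0.81, 0.60, 0.56 and 0.55), with a median of 0.41 that was 0.18 without the 2 arrays. The count was 15 without wild-type replicate 4, 9 without knockout replicate 6, 1 without wild-type replicate 3 or knockout replicate 4, and 0 without wild-type replicate 1 or knockout replicates 1, 3 or 5. Of 12 cholesterol synthesis genes 0 passed in limma with all arrays (median 0.45, 2 with an unadjusted p under 0.05), but 8 were higher within the plain-number animals (median 0.85). For the second-series knockouts against the same wild types it was -0.01. The homeobox gene Hoxa11 was 8.59, 8.71, 8.35, 8.57 and 8.48 in wild types and 7.55 to 8.11, median 7.65, in knockouts (-0.82 ± 0.10, adjusted p = 0.00651), while Hoxb13 spanned 6.93 to 10.80 in knockouts and did not pass (1.93 ± 0.74, adjusted p = 0.105).

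**Figure D4:**
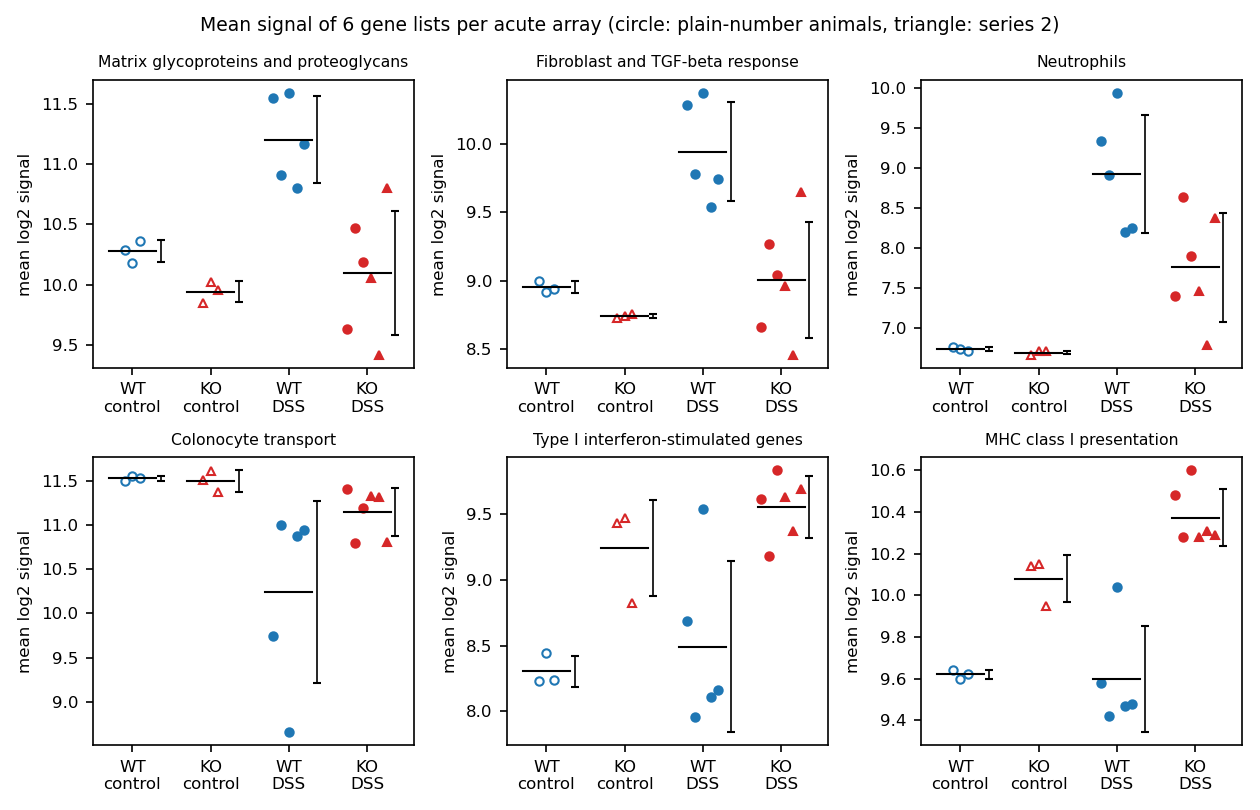
Mean log2 signal of 6 gene lists in each acute array (points; open for controls, filled for DSS), with group means (lines) and SD (bars). Matrix and fibroblast signal is raised in wild-type DSS above all controls, and colonocyte signal is low in 2 wild-type DSS arrays. MHC class I signal is higher in every knockout than in every wild type within controls and within DSS. Within controls, matrix glycoprotein and fibroblast signal is lower in every knockout than in every wild type.

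**Figure D5:**
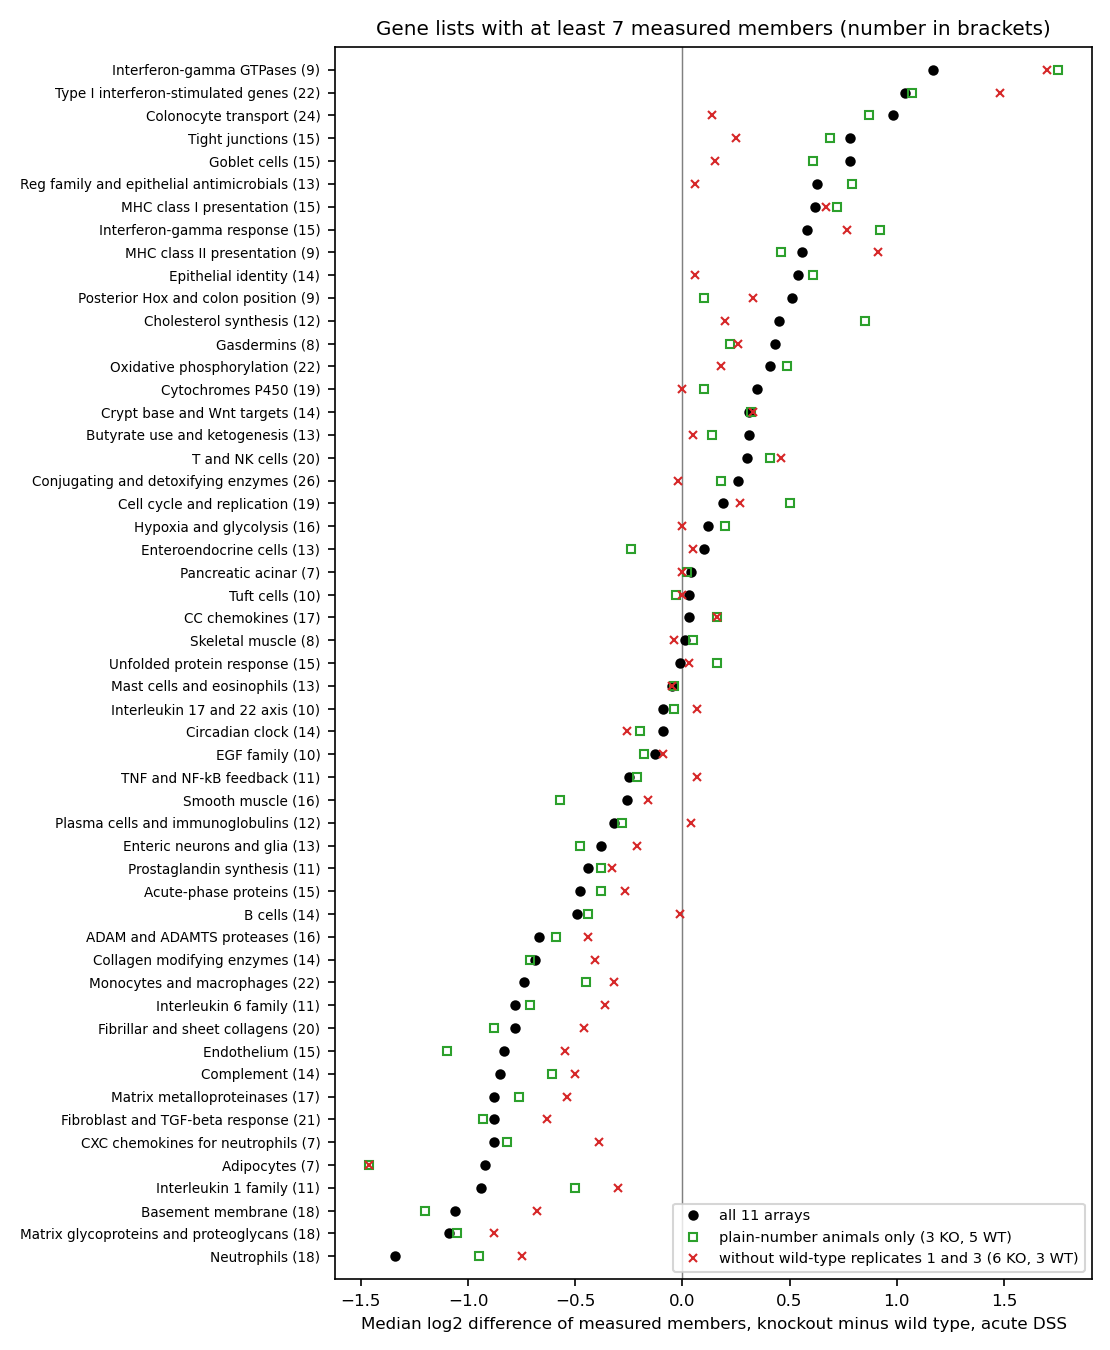
Median log2 difference of each list with at least 7 measured members, for all 11 arrays (black), the plain-number animals (green squares) and without wild-type replicates 1 and 3 (red crosses). Without those 2 arrays the colonocyte, tight junction and goblet medians lie at 0.14 to 0.25, whereas the type I interferon median is 1.48 and the matrix glycoprotein median -0.88.

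Part of the genotype difference was there without DSS. In acute controls 964 genes passed (4.83%; 1.98% higher, 2.85% lower), and the 2 genotypes there come from different title series, so genotype and series cannot be told apart. Of the 2239 genes that differed under DSS, 117 passed in controls in the same direction (5.23% of the DSS calls and 12.1% of the control calls; 61 higher, 56 lower) and 44 in the opposite direction. Xpnpep2 was higher in knockout controls by 2.23 (adjusted p = 0.000948), Ddx60 by 2.30 (0.00576), Apol10a by 3.25 (0.0129) and Ido1 by 2.43 (0.00372). Xpnpep2 stood at 7.43, 7.58 and 7.66 in wild-type controls and 9.84, 10.12 and 9.39 in knockout controls, about as far apart as under DSS. The type I interferon list had a control median of 0.80 with 14 members higher, the MHC class I list 0.42 with 7, and the GTPase list 0.69 with 6. For T and NK cell genes the control median was 0.31 with 7 higher. Matrix glycoproteins had -0.28 with 5 lower, and fibroblast and TGF-beta response genes -0.22 with 3 lower. Collagens and basement membrane genes had 1 and 0 lower. The test of the difference between the 2 genotype differences, the interaction, passed for 536 genes (2.69%; 1.55% higher, 1.13% lower) but for 0 of the 22 interferon-stimulated genes and 0 of the 9 GTPases in limma, and 1 class I gene.

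The interaction passed for genes at both ends of the comparison. It passed for 337 of the 2239 genes, all with the sign of the DSS difference, which enters the interaction itself. Timp1 (-2.52 ± 0.63, adjusted p = 0.0469), Gpnmb (-1.73, adjusted p = 0.0373), Btc (-0.70, adjusted p = 0.0421), Hoxa11 (-0.89, adjusted p = 0.0141) and Syn1 (-0.59, adjusted p = 0.0463) had a more negative difference under DSS than in controls. In controls Hoxa11 differed by 0.07 (adjusted p = 0.727). Upp1 (2.11, adjusted p = 0.0271), Gsdmc4 (2.55, adjusted p = 0.0342), Tnfsf10 (1.34, adjusted p = 0.0428) and the glycolytic enzyme Hk2 (1.45, adjusted p = 0.0168) had a more positive one. In controls Gsdmc4 differed by -0.20 (adjusted p = 0.532), and Hk2 was lower in knockouts (-0.66, adjusted p = 0.0126). Matrix glycoproteins had an interaction median of -0.82 with 1 member passing, and colonocyte transport 0.86 with 1. Of 14 circadian clock genes, 9 passed the interaction and 0 the comparison under DSS in limma, where 3 had an unadjusted p under 0.05. Their median was 0.71 in controls and -0.09 under DSS, and collection times are not given in the sources used here.

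Under chronic DSS 12 genes passed (0.0602%; 0.0401% higher, 0.0201% lower), in groups that come from different title series, and 1 to 143 passed without single arrays. The 4 genes that passed in both the acute and the chronic DSS comparison were Xpnpep2 (chronic 2.07 ± 0.25, adjusted p = 0.0237), Wdfy1, an endosomal adaptor (0.76 ± 0.07, adjusted p = 0.00774), Car5b, a mitochondrial carbonic anhydrase (-0.83 ± 0.12, adjusted p = 0.0346), and the scavenger receptor Scara5 (-0.48 ± 0.06, adjusted p = 0.0346). The last 3 were named after their values were seen, and under acute DSS they gave 0.64 ± 0.10, -1.13 ± 0.25 and -0.91 ± 0.20. Timp1 itself differed by -1.38 ± 0.32 in the chronic groups and did not pass in this fit (adjusted p = 0.137). The chronic median was 0.04 for type I interferon genes, -0.01 for class I presentation and -0.31 for matrix glycoproteins, and none of these lists had a member that passed. The difference between the acute and the chronic comparison was not tested.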

How the data were processed

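Colon RNA of 11 mice under acute DSS was analysed, with 6 acute controls and 10 chronic DSS mice for comparison. The deposited log2 values per transcript cluster were made by the authors with RMA, per the submitters' processing notes, which give no version. The log base was read as 2 from the range of the values, 3.03 to 14.96. The table held 35511 clusters. Platform annotation gave a single symbol for 21789, more than one for 1621 and none for 12101. Only the first kind entered, and the cluster with the highest mean signal was kept for the 999 genes with several, leaving 19938 genes. Array medians lay between 7.67 and 7.76. Arrays carry no counts, so their number limits the precision. The 56 lists held 856 symbols, matched by symbol or RefSeq (GRCm38.p6) synonym, and 772 were measured.

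The comparison used limma 3.58.1 (R 4.3.3) on the 11 arrays alone, with 9 residual and 2.31 prior degrees of freedom, two-sided, with Benjamini-Hochberg adjustment over all genes. It was also run on simulated data with independent noise for each gene, where 7.14% of calls were false. Those data held no variation shared by the genes of an array, so they cannot check what such variation did to the calls. The other comparisons were fitted on their own groups, and the interaction on the 17 acute arrays. Genes named are the 20 largest differences in each direction, 3 members of each list, Timp genes, 5 neighbours on each side, the 10 widest gaps, and members that passed, the last chosen after their values were seen. The members and lists were chosen with earlier results of these data known. Animals were taken as separate because each title number occurs once. If any shared an animal, p-values would measure technical spread. Alternatives were normalization, array weights, a series covariate, other cluster rules, all 37 arrays, and leaving out arrays.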

Additional observations from a re-analysis of the deposited data

Results flagged for a closer look

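Single arrays lay far from the rest of their group in 12 of 292 groups of values (4.11%, where chance gives about 5.0%). Knockout replicate 6 was high for Timp1 (8.68), Hoxa11 (8.11) and genes of enteric neurons and glia (8.68), and low for Rnf43 (8.51), crypt base genes (8.55) and tight junctions (9.81). Knockout replicate 2 was low for Apol10a (8.95), replicate 4 high for adipocyte genes (8.60) and replicate 3 high for mast cell and eosinophil genes (7.07). Wild-type replicate 3 was high for interferon gamma response (9.85), MHC class I presentation (10.04) and the interleukin 17 and 22 axis (7.94). What sets these arrays apart was not tested.

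The genotype difference under DSS differed from that in controls, by limma's interaction test, for 13 named genes. Only named genes that passed under DSS were looked at, and the DSS difference enters this test itself. Of all 2239 genes that passed under DSS, 337 passed the interaction too. The genotype difference was more positive under DSS for Capn13 (2.86), Gsdmc4 (2.55), Upp1 (2.11), Pyy (1.46), Hk2 (1.45), Atf3 (1.39) and Tnfsf10 (1.34). It was more negative for Timp1 (-2.52), Gpnmb (-1.73), Cald1 (-1.18), Hoxa11 (-0.89), Btc (-0.70) and Syn1 (-0.59). Knockout controls come from the second title series and wild-type controls from the plain-number one, so in this test genotype and series cannot be told apart.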

How the results depend on the processing

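Timp1 passed in each alternative except the second-series knockouts alone (-2.88, adjusted p = 0.0633). The 2239 genes became 6170 with all 37 arrays in 1 model, 3369 with series as a covariate, 3525 with array weights, 150 with only the second-series knockouts, 147 without wild-type replicates 1 and 3, 1041 without the array with Y-linked signal (knockout replicate 4) and 300 to 3790 without single arrays. Quantile and cyclic loess normalization gave 2077 and 2170. The plain-number count of 3107 became 6405 with 37 arrays and 475 to 3285 without single arrays. The control count of 964 became 223 with 37 arrays, 556 without the array with Y-linked signal and 159 to 1427. The interaction count of 536 became 2444 with 37 arrays, 112 without the arrays with Y-linked signal and 42 to 2074. The chronic count of 12 became 495 with 37 arrays and 1 to 143. The cause was not tested. Of 90 named genes that passed, 63 did not pass without wild-type replicate 1, 49 without knockout replicate 1, 0 without knockout replicate 6, 77 with only the second-series knockouts, 66 without wild-type replicates 1 and 3 and 29 with the series covariate. Of 20 lists followed through these fits, 19 were weaker with only the second-series knockouts and 1 was counted as the same. The sign turned in 2 genes that did not pass: Ces1g was 0.00 with only the second-series knockouts (-1.48 with all), and Slc26a3 -0.06 without wild-type replicates 1 and 3. The fit with only the second-series knockouts was chosen after the data were seen. So was leaving out arrays with Y-linked signal for the controls and the interaction. No paired analysis was possible because replicate numbers only follow accession order and each animal number occurs once. Signal over background could not be judged, as the files give no detection values.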
